A study of Mus musculus with 11 samples.

Results

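Mouse 3T3-L1 cells that received 20 µM pioglitazone for 24 h were compared with cells that received the vehicle alone. The comparison takes 5 of the 11 arrays of the series by their titles: 2 pioglitazone arrays and 2 vehicle arrays of set 1, and 1 vehicle array of set 2, numbered replicate 4, which enters only beside a term for the set. Vehicle was 0.1% DMSO, also for 24 h, and 1 array was made from the total RNA of each sample. The other 6 arrays, which share the estimate of the spread, hold 1 µM rosiglitazone (3 arrays) and 20 µM troglitazone (3 arrays), each with 2 arrays in set 1 and 1 in set 2. 3T3-L1 is an established mouse fibroblast line that can be turned into fat cells in culture. The labels give no state of differentiation, no clone or passage, and do not say whether the arrays of a group came from separate cultures, so p-values measure the spread between these samples, which may be technical.

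Pioglitazone is a thiazolidinedione, a class of insulin-sensitising drugs that bind the nuclear receptor PPARγ. PPARγ pairs with a retinoid X receptor on DNA and is the main transcription factor of fat-cell formation. In fat cells its targets store fatty acids in lipid droplets, trap them as triglyceride and burn them in mitochondria and peroxisomes.

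The arrays hold 12422 probe sets that are not controls, of which 11739 exceeded a floor of 73.7 signal units on at least 2 arrays and were tested with limma. "Rose", "fell" and "passed" mean an adjusted p under 0.05, folds come from the fit, and the error of a log2 change is its standard error. The 5 arrays carried fat-cell transcripts at high signal: Adipoq, which encodes the hormone adiponectin, gave 37098.4 and 44595.4 with pioglitazone and 41391.7, 49355.1 and 49892.7 with vehicle. Of 18 tested macrophage markers, 15 stayed under 500 units on each of these 5 arrays. The exceptions were Cd14, Laptm5 and Csf1r. Csf1r read 2817.4 and 1741.8 with pioglitazone and 1800.1, 1367.4 and 643.1 with vehicle. The median signal of all tested probe sets was 200.4, so a value under 500 does not show that a transcript was absent. The second pioglitazone array stood apart in the ratio of 3′ to 5′ signal of the beta-actin control, a measure of RNA integrity, at 4.86 against 1.91 on the first and 2.23 and 2.27 on the set 1 vehicle arrays. The set 2 vehicle array was also high, at 3.90, as were the other set 2 arrays at 3.74 and 3.79. The part of this ratio in the results was not tested beyond the fits without that array and with the ratio as a covariate, given at the end. The 2 pioglitazone arrays differed from each other by a median of 0.469 log2 units over the tested probe sets, and the set 1 vehicle arrays by 0.381.

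Few probe sets passed in this small design, and most of those that did were bright ones that increased. In all, 74 probe sets rose and 32 fell, 106 together or 0.903% of those tested (0.63% higher and 0.273% lower). An unadjusted p under 0.05 in limma was reached by 1156 probe sets. Under quantile normalization 40 rose and 42 fell, so the excess of rises depends on the scaling. With each of 7962 genes represented by its brightest tested probe set, 58 genes rose and 26 fell, which is 0.728% and 0.327% of genes and 1.06% together. On all 106 probe sets both pioglitazone arrays lay beyond both set 1 vehicle arrays, and on 97 they also lay beyond the set 2 vehicle array. Over all tested probe sets, both pioglitazone arrays lay above both set 1 vehicle arrays for 14.4% and below both for 19.5%. The median signal was 3914 for the probe sets that passed and 200.4 for those tested. Folds among the calls ran from 1.53 to 7.89, with a median of 1.97 for the rises and 2.53 for the falls. The median interval around a change extended 1.04 log2 units to each side, before adjustment for the number of tests. A probe set with an interval of that width needed a larger change to pass after adjustment. Probe sets with narrower intervals, mostly bright ones, passed at smaller changes, down to 0.614 log2 units.

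**Figure D1:**
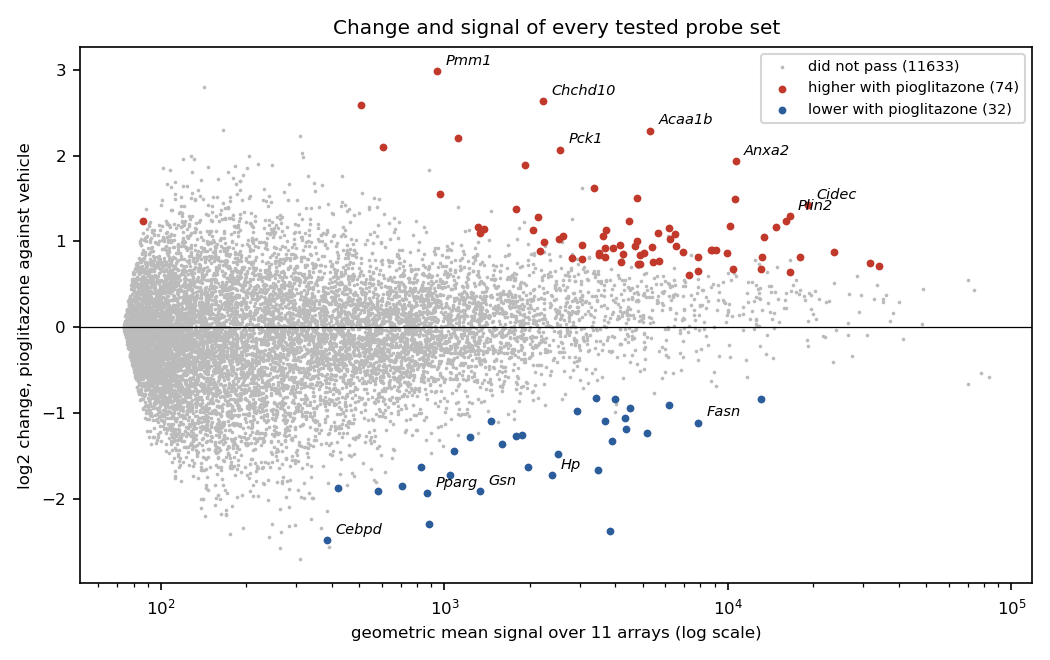
Log2 change of pioglitazone against vehicle (vertical axis) plotted on the geometric mean signal over the 11 arrays (horizontal log axis), 1 point per tested probe set; red points are the 74 that rose and blue points the 32 that fell. The calls lie mostly among bright probe sets, whose median signal was 3914, and the dim probe sets at the left scatter widely, nearly all without passing.

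The calls rest on a small design. When each of the 11 arrays was left out in turn, 33 of the 106 probe sets (22 higher and 11 lower) passed in every fit, and the number called went from 49 without vehicle replicate 1 to 115 without pioglitazone replicate 2. A fit of the 4 set 1 arrays alone, 2 against 2, called 3 probe sets (910 at an unadjusted p under 0.05), those of Acaa1b and Anxa2 and the unnamed 97317_at, and a fit without the intensity trend called 6. Of 23 genes with a call and several tested probe sets, 0 had every probe set called, and in 9 the probe sets moved in opposite directions. The genes described next kept their calls in all 11 fits that left out 1 array unless the text says otherwise.

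Lipid droplet and lipid-handling genes included the clearest rises. Of 20 tested genes on a list of PPARγ targets and lipid droplet proteins, 8 rose and 0 fell (40.0% against 0.728% of all genes), and the list's median log2 change was 0.48 against -0.08 for all genes. Between 6 and 8 of them passed when 1 array was left out. This list and those that follow were drawn up with earlier results of these data known, so their directions are not independent evidence.

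Acaa1b, which encodes a thiolase of peroxisomal fatty acid oxidation, read 8742.3 and 7243.0 with pioglitazone against 1519.6, 1630.7 and 3087.1 with vehicle. It rose 4.89-fold (log2 2.29 ± 0.16, adjusted p = 4.14e-06), with no overlap between the groups. A second Acaa1b probe set had a log2 change of 0.64 and did not pass (adjusted p = 0.427). Pck1 encodes cytosolic phosphoenolpyruvate carboxykinase, which in fat cells feeds the making of glycerol 3-phosphate for triglyceride. Its signal was 6331.3 and 6603.0 with pioglitazone against 1717.7, 1016.2 and 1988.5 with vehicle, and it rose 4.20-fold (log2 2.07 ± 0.26, adjusted p = 0.000901). The pioglitazone arrays agreed closely, and both lay above all 3 vehicle arrays.

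Cidec, a protein that enlarges lipid droplets by fusing them, read 27672.7 and 25620.5 with pioglitazone and 9477.7, 9483.4 and 13350.6 with vehicle, a rise of 2.69-fold (adjusted p = 0.000138). Plin2, which coats lipid droplets, read 25005.0 and 20994.9 against 9674.6, 10195.5 and 6177.5 and rose 2.45-fold (adjusted p = 0.000901). Both genes were already bright with vehicle, and on both the pioglitazone arrays stood above all 3 vehicle arrays. Angptl4, a secreted inhibitor of lipoprotein lipase, read 6232.7 and 5046.8 against 2095.9, 2550.2 and 2994.1 and rose 2.35-fold (adjusted p = 0.00116). A further Angptl4 probe set rose 2.08-fold, while the remaining ones, with log2 changes of 0.20 and -0.71, did not pass. Abhd5, the protein that activates the triglyceride lipase ATGL, read 5631.5 and 4322.8 against 2224.3, 2266.8 and 2488.6 and rose 2.19-fold (adjusted p = 0.00249). It was the only call among 11 tested genes of lipolysis (9.09% rose, against 0.728% of all genes). The list's median log2 change was 0.04 and was below 0 under quantile normalization and without vehicle replicate 2.

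Gpd1, which makes glycerol 3-phosphate, rose 2.37-fold from 8044.8 and 9387.5 on the set 1 vehicle arrays to 23057.8 and 19256.1. Leaving out vehicle replicate 1 (adjusted p = 0.0723) or pioglitazone replicate 1 (log2 1.11) ended the call. A second Gpd1 probe set had a log2 change of 0.85 and did not pass (adjusted p = 0.448). The fatty acid binding protein Fabp5 rose 1.69-fold (adjusted p = 0.0446), a call kept without rosiglitazone replicate 1 or 2 and lost without any of the other 9 arrays (adjusted p from 0.0566 to 0.221). Among the list's members that did not pass were well-known PPARγ targets. Fabp4 read 2980.9 and 3239.2 against 2209.5, 2818.6 and 2037.1 (log2 0.31 ± 0.17, adjusted p = 0.611). For lipoprotein lipase, Lpl, the pioglitazone arrays read 13258.6 and 22504.8 and overlapped with vehicle at 20454.5, 22414.8 and 26721.3.

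**Figure D2:**
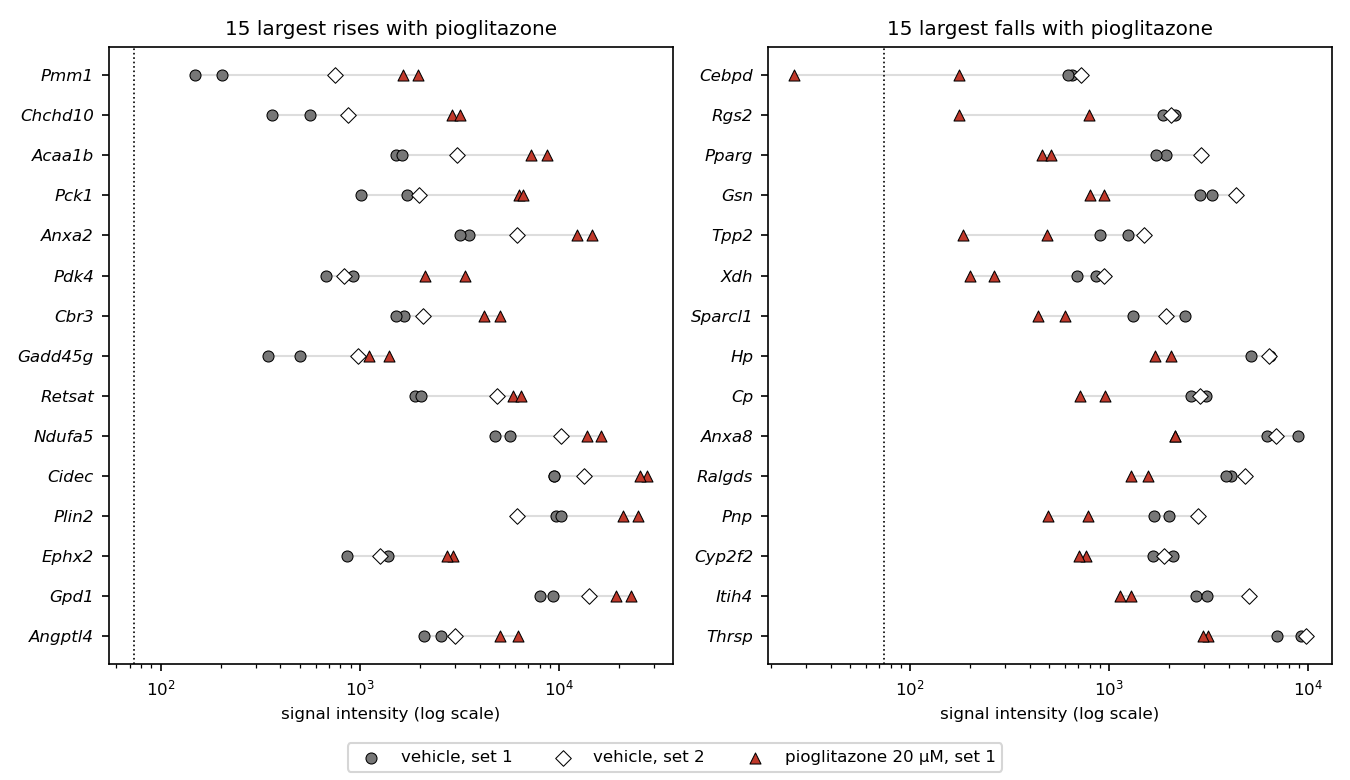
Signal intensity (horizontal log axis) of the 15 genes with the largest rises and the 15 with the largest falls among those that passed, 1 row per gene and 1 symbol per array: red triangles for the 2 pioglitazone arrays, grey circles for the 2 set 1 vehicle arrays, open diamonds for the set 2 vehicle array, and a dotted line at the floor of 73.7. In every row both triangles lie on one side of all 3 vehicle arrays, while the diamond lies nearer the triangles than the circles do in rows such as Retsat and Gadd45g.

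The windows before the start sites of the genes that moved were searched for the letters that PPARγ and related receptors recognise. The search used the 250 bases before each start in the RefSeq promoter table of GRCm38.p6, on both strands, and 63 of the 84 genes with a call had at least 1 window there. The hexamer AGGTCA was in 10.3% of 58 windows of genes that rose, 14.8% of 27 windows of genes that fell, 11.9% of 8136 windows of tested genes and 14% of all 32851 windows. The direct repeat DR1, which is that hexamer repeated after any single base, and the extended hexamer TCAAGGTCA, both of which contain the shorter one, were in 0 of the windows of genes that rose or fell, in 0.0123% and 0.258% of those of tested genes and in 0.0335% and 0.387% of all windows. The 3 windows printed here belong to genes that rose in all 11 fits and hold the hexamer; capitals mark it, as TGACCT where it lies on the other strand. They are shown so that its surroundings can be read, and a match is a description and not a binding site. The windows are those of Chchd10 (chr10:75932880-75933129, plus strand), Plin2 (chr4:86670060-86670309, minus strand) and Abhd5 (chr9:122351366-122351615, plus strand), each ending at the base before the start.
Chchd10: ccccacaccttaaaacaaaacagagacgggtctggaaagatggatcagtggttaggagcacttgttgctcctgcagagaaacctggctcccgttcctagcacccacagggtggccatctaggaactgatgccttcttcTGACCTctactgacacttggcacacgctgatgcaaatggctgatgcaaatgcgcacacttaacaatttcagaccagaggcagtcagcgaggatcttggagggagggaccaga
Plin2: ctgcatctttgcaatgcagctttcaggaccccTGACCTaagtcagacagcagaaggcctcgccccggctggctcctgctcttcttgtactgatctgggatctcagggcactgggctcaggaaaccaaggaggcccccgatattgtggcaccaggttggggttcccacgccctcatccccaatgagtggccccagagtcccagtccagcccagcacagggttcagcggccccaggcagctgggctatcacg
Abhd5: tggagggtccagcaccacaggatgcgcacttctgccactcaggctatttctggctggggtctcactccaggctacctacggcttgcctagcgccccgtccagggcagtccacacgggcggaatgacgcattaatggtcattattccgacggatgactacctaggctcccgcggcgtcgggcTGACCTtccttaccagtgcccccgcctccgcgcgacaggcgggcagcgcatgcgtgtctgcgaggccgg

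Some genes of fatty acid burning rose, in mitochondria and in peroxisomes. Among the 19 tested genes for burning fatty acids in mitochondria, 4 rose and 0 fell (21.1% against 0.728% of all genes), with a median log2 change of 0.62, and 13 of the 19 had both pioglitazone arrays above both set 1 vehicle arrays, against 15.4% of all genes. Acaa2, the last enzyme of the mitochondrial cycle, read 15996.0 and 19482.6 against 9416.7, 8194.9 and 10487.7 and rose 2.07-fold (adjusted p = 0.00143). Cpt2, which frees fatty acids from carnitine inside mitochondria, rose 1.93-fold (9833.8 and 8002.0 against 4553.2, 4689.9 and 6427.7), and lost its call without pioglitazone replicate 1 (adjusted p = 0.0646). A second Cpt2 probe set had a log2 change of -0.58 and did not pass.

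Hadhb, a subunit of the trifunctional protein, rose 1.76-fold, and its call was lost without vehicle replicate 1, vehicle replicate 2 or pioglitazone replicate 1 (adjusted p from 0.0573 to 0.098). Etfb, a carrier of electrons from fatty acid oxidation, rose 1.83-fold (6879.6 and 10059.8 against 4176.8, 5236.1 and 7981.7), with the call lost without any of 5 arrays, vehicle replicates 1 and 4, pioglitazone replicate 2, and replicate 4 of rosiglitazone and of troglitazone (adjusted p from 0.0614 to 0.166). Its second probe set had a log2 change of -1.08 and did not pass. The list's count of 4 became 2 without vehicle replicate 1. Cpt1a, the gate for fatty acid entry into mitochondria, read 1026.8 and 720.7 against 397.1, 420.8 and 546.6, with no overlap, but did not pass (log2 1.08 ± 0.35, adjusted p = 0.226).

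In peroxisomes, 3 of 22 tested genes rose and 0 fell (13.6% against 0.728% of all genes, median log2 0.18): Acaa1b, Acaa1a and Pex19. Acaa1a, the other peroxisomal thiolase, read 5786.7 and 5916.7 against 3274.9, 2589.5 and 4718.4 and rose 2.0-fold (adjusted p = 0.00768), a call lost without vehicle replicate 2 (adjusted p = 0.0641). Pex19, a chaperone for peroxisomal membrane proteins, passed only narrowly (2.13-fold, adjusted p = 0.0472), and the call was lost without any array except pioglitazone replicate 1. Without vehicle replicate 2 the list's count of 3 fell to 1.

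Respiratory chain transcripts lay mostly higher with pioglitazone than with the set 1 vehicle, mostly by less than 2-fold. Of 69 tested genes of oxidative phosphorylation, 60 had a log2 change above 0, and 48 had both pioglitazone arrays above both set 1 vehicle arrays, against 15.4% of all genes. Of the 69, 12 rose and 0 fell (17.4% against 0.728% of all genes). Their median log2 change was 0.45. Their summed signal was 551458.9 and 535569.8 with pioglitazone against 368324.5 and 375864.6 on the set 1 vehicle arrays, while the set 2 vehicle array, at 533109.4, lay about level with pioglitazone. Complex I had 5 rises among 28 genes, complex II had 0 among 4, complex III had 4 among 8, complex IV had 1 among 15 and the ATP synthase, complex V, had 2 among 13; the remaining gene was that of cytochrome c. Median changes were 0.40, 0.28, 0.67, 0.38 and 0.45 in the same order. Sdhaf1, an assembly factor of complex II that is not on the list, rose 1.85-fold (adjusted p = 0.0456), kept in 2 of the 11 fits that left out 1 array.

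Ndufa5, a subunit of complex I, had the largest rise of the chain, 2.82-fold (adjusted p = 0.000138), at 16228.9 and 13894.2 with pioglitazone and 5692.8, 4798.2 and 10204.9 with vehicle. Atp5o, of the ATP synthase stalk, read 12685.2 and 12577.4 against 5653.8, 4935.0 and 10503.3 and rose 2.26-fold (adjusted p = 0.000901). On both genes the set 2 vehicle array lay well above those of set 1, yet under both pioglitazone arrays. Ndufb7, of complex I, read 8656.2 and 8864.9 against 4584.0, 4048.7 and 4121.0 (2.23-fold, adjusted p = 0.00665). Uqcrh, of complex III, read 9734.9 and 11411.8 against 5893.8, 5181.7 and 8412.1 (1.87-fold, adjusted p = 0.00522). These 4 genes kept their calls whichever array was left out. The other rises were Ndufb5, Ndufb6 and Ndufb10 of complex I, Uqcrb, Uqcrq and Cyc1 of complex III, Cox6a2 of complex IV and Atp5e of the ATP synthase, between 1.64-fold for Uqcrq and 2.21-fold for Cox6a2. Each of these 8 lost its call without at least 1 array: Ndufb5 without vehicle replicate 2, Ndufb10 without vehicle replicate 2 or pioglitazone replicate 2, Uqcrb without vehicle replicate 1 or pioglitazone replicate 2, and Ndufb6 and Cyc1 without vehicle replicate 1 or 2 or pioglitazone replicate 1. Uqcrq and Cox6a2 were kept in 5 of the 11 fits and Atp5e in 4. The second probe sets of Ndufb6, Ndufb7, Ndufb10 and Cyc1 did not pass, and that of Ndufb6 had a log2 change of the opposite sign (-0.01).

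The count of respiratory genes depended on single arrays and on the fit: it was 5 without vehicle replicate 2, 6 without vehicle replicate 1, 12 (with 1 fall) without pioglitazone replicate 2 and 0 without the set term or the intensity trend. The median stayed between 0.41 and 0.48 whichever single array was left out. Cycs, cytochrome c, split the pioglitazone arrays at 1183.5 and 4181.9, against 901.9, 1090.5 and 1080.2 with vehicle, and did not pass (log2 1.22, adjusted p = 0.178). Cox5a, of complex IV, had the lowest value of the list (log2 -1.40, adjusted p = 0.472), from a dim probe set at 119.9 and 78.9 against 252.4, 383.9 and 160.4.

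Other mitochondrial genes held the second-largest rise of the comparison. Chchd10, a small protein of the space between the mitochondrial membranes, read 2914.1 and 3172.9 with pioglitazone against 560.1, 364.2 and 868.1 with vehicle. It rose 6.20-fold (log2 2.63 ± 0.22, adjusted p = 1.43e-05), and the groups were far apart. With it, Lonp1, a protease of the mitochondrial matrix, rose 1.92-fold and Hspa9, the matrix chaperone that helps import, rose 1.61-fold. These were the 3 calls among 49 listed genes of import, carriers and mitochondrial ribosome (6.12% rose, against 0.728% of all genes, median log2 0.32). Mrpl51, of the mitochondrial ribosome but not on the list, also rose 1.83-fold (adjusted p = 0.0143), kept in 8 of the 11 fits that left out 1 array. Lonp1 lost its call without vehicle replicate 2 or either pioglitazone array, and its second probe set had a log2 change of -0.07. Hspa9 lost its call without any of 8 arrays (adjusted p from 0.0519 to 0.108).

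At the entry of pyruvate into mitochondria, Pdk4, the kinase that switches off pyruvate dehydrogenase, rose 3.72-fold (adjusted p = 0.00715), at 2128.7 and 3362.9 against 674.3, 926.0 and 830.8. The call was lost without pioglitazone replicate 2 (log2 1.57, adjusted p = 0.0846). Ogdh, a subunit of the 2-oxoglutarate dehydrogenase complex, rose 2.05-fold (3503.5 and 3408.1 against 1536.7, 1684.1 and 2009.0), and did not pass once vehicle replicate 1 was left out (adjusted p = 0.0509). Suclg1, of succinyl-CoA ligase, rose 1.80-fold (4775.1 and 6362.5 against 3142.7, 3080.1 and 5472.2) and lost its call without any of 6 arrays (adjusted p from 0.0545 to 0.127). These were the 3 rises, against 0 falls, among 30 tested genes of pyruvate entry and the citric acid cycle. Of all genes, 0.728% rose. The list's median log2 change was 0.20, and leaving out 1 array gave between 1 and 3 rises and between 0 and 1 falls. In glycolysis and glycogen metabolism, Pgm1 (1.60-fold) and Tpi1 (1.56-fold) passed among 26 genes (7.69% rose, against 0.728% of all genes). Each call was kept in fewer than 5 of the 11 fits that left out 1 array.

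Fat synthesis went the other way in part. Among the 20 tested genes that make fatty acids and triglyceride, 4 fell and 1 rose (20.0% and 5.0%, against 0.327% and 0.728% of all genes); the list's median log2 change was -0.05, and 0.14 under median centring. Fasn, the fatty acid synthase, read 5601.4 and 7574.7 with pioglitazone against 13606.8, 15581.8 and 18128.0 with vehicle and fell 2.16-fold (log2 -1.11 ± 0.16, adjusted p = 0.00315). Srebf1, the transcription factor that drives lipogenic genes, read 3484.6 and 2379.6 against 5970.4, 5895.6 and 6933.4 and fell 2.12-fold (adjusted p = 0.00665). Thrsp, a nuclear protein that rises with lipogenesis, read 3136.2 and 2976.0 against 6958.8, 9228.8 and 9796.1 and fell 2.49-fold (adjusted p = 0.00275). No pioglitazone array overlapped with vehicle on these 3 genes, and their calls held whichever array was left out.

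The fourth fall was the fatty acid elongase Elovl5, 2.38-fold, whose call was lost without vehicle replicate 1, vehicle replicate 2 or pioglitazone replicate 1 (adjusted p from 0.113 to 0.176). The rise was Hsd17b12, an enzyme that also serves fatty acid elongation, at 2.13-fold (adjusted p = 0.0465), kept in 2 of the 11 fits that left out 1 array. Scd1, the main desaturase, read 83924.5 and 77274.6 against 99794.7, 136379.3 and 105023.3, with no overlap, and did not pass (log2 -0.57 ± 0.21, adjusted p = 0.331). Of 21 tested genes of cholesterol synthesis and uptake, 0 passed through their brightest probe set, with a median log2 change of 0.25. For farnesyl diphosphate synthase, Fdps, another probe set did pass, at 13462.4 and 13383.6 against 7979.3, 7680.2 and 7107.1 (1.82-fold, adjusted p = 0.00688).

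The receptor's own transcript was lower. Pparg read 462.2 and 511.4 with pioglitazone against 1931.3, 1728.7 and 2886.1 with vehicle, and fell 3.8-fold (log2 -1.93 ± 0.24, adjusted p = 0.000901). Both pioglitazone arrays were far below every vehicle array, and the call survived the loss of any single array. Among 21 adipogenic transcription factors tested, 3 fell and 0 rose (14.3% fell, against 0.327% of all genes): Pparg, Cebpd and Srebf1. The list's median log2 change was -0.11, and was 0.06 under median centring and without pioglitazone replicate 1.

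Cebpd encodes C/EBPδ, which acts early in fat-cell formation. Its signal was 26.0 and 176.2 with pioglitazone against 652.9, 620.0 and 724.2 with vehicle, so the first pioglitazone value lay under the floor of 73.7 and the size of its fall (5.56-fold, log2 -2.48 ± 0.45, adjusted p = 0.0138) depends on that floor. The call was lost without any of the 3 vehicle arrays (adjusted p from 0.0552 to 0.0862) or without pioglitazone replicate 1 (log2 -1.85, adjusted p = 0.0971). Its partners did not pass: Cebpa read 8121.9 and 8245.9 against 9214.0, 7793.6 and 9799.4, and Cebpb 5154.1 and 4208.2 against 2845.6, 3780.9 and 4137.8. Cebpa's log2 change of -0.10 became 0.08 under median centring. Rxra, the partner receptor, read 1077.0 and 971.7 against 345.3, 837.2 and 935.3 and did not pass (adjusted p = 0.612).

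Among 31 nuclear receptors and coregulators, Pparg fell and Esrra rose (3.23% each way, against 0.327% and 0.728% of all genes). Esrra encodes ERRα, a receptor that drives mitochondrial genes, and read 4186.5 and 3736.5 against 1930.3, 2119.8 and 1931.5, a rise of 1.95-fold (adjusted p = 0.00634). Its second probe set had a log2 change of 0.37 and did not pass.

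Plasma proteins made by fat cells were lower where they passed. Haptoglobin, Hp, a carrier of free haemoglobin, read 2045.4 and 1693.3 against 5181.9, 6462.2 and 6385.3 and fell 3.30-fold (adjusted p = 0.00153). Ceruloplasmin, Cp, the copper carrier of plasma, read 955.7 and 715.1 against 3085.6, 2569.6 and 2869.2 and fell 3.29-fold (adjusted p = 0.0126). Itih4, of the inter-alpha-trypsin inhibitor family, read 1135.8 and 1286.0 against 2729.2, 3102.1 and 5017.6 and fell 2.57-fold (adjusted p = 0.0154). These were the 3 falls, against 0 rises, among 28 genes of the acute phase and complement (10.7% fell, against 0.327% of all genes), whose median log2 change was -0.19. Cp lost its call without vehicle replicate 1 or 2 or pioglitazone replicate 2 (adjusted p from 0.064 to 0.0988), and Itih4 without vehicle replicate 2 or 4 or either pioglitazone array (adjusted p from 0.0551 to 0.121). The list's count of 3 was 1 without vehicle replicate 2 or without pioglitazone replicate 2.

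Of 17 tested adipokines and secreted proteins, haptoglobin alone passed (5.88% fell, against 0.327% of all genes), and the list's median log2 change was -0.52. Resistin, Retn, a secreted peptide of mouse fat, read 2818.6 and 4593.1 against 6670.0, 7908.2 and 7587.1 and did not pass (log2 -0.89 ± 0.22, adjusted p = 0.0782). Leptin, Lep, read 322.6 and 306.7, within the range of the vehicle values of 271.2, 502.7 and 859.1. Adipoq had a log2 change of -0.13 ± 0.15, and of 0.05 under median centring. Apoc1, an apolipoprotein, fell 1.78-fold, from 18421.8, 18828.1 and 26255.1 with vehicle to 10679.5 and 10080.0, with the call lost without any of the 4 set 1 arrays (adjusted p from 0.0601 to 0.0823).

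Matrix genes and markers of preadipocytes lay lower as groups, with few calls. Of 57 tested genes of the extracellular matrix, 3 fell and 0 rose (5.26% fell, against 0.327% of all genes), and 23 had both pioglitazone arrays below both set 1 vehicle arrays, against 20.7% of all genes. The list's median log2 change was -0.42. Sparcl1, a secreted matricellular protein, read 438.5 and 601.5 against 2393.6, 1325.8 and 1921.0 and fell 3.59-fold (adjusted p = 0.0171). Biglycan, Bgn, a small matrix proteoglycan, read 2850.3 and 3729.8 against 7878.0, 7033.8 and 10456.8 and fell 2.34-fold (adjusted p = 0.00768). A second Bgn probe set was also lower and did not pass. Fibronectin, Fn1, read 1044.6 and 1382.7 against 2911.7, 2449.5 and 1966.6 and fell 2.12-fold (adjusted p = 0.0269). None of the 3 calls survived the loss of vehicle replicate 1 or of pioglitazone replicate 1, after which 0 matrix genes passed. Sparcl1 and Fn1 also lost their calls without vehicle replicate 4, and Fn1 without vehicle replicate 2 or troglitazone replicate 4 (adjusted p from 0.0503 to 0.197 for Fn1).

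All 14 tested markers of preadipocytes and fibroblasts had a log2 change below 0, with a median of -0.98 against -0.08 for all genes. Of the 14, 8 had both pioglitazone arrays below both set 1 vehicle arrays, against 20.7% of all genes. Fn1 alone passed (7.14% fell, against 0.327% of all genes). Thy1, a surface protein of fibroblasts, read 119.3 and 189.0 against 609.1, 636.2 and 497.3 and did not pass (log2 -1.92 ± 0.48, adjusted p = 0.0859). Col1a1, of type I collagen, read 669.5 and 939.5 against 2329.7, 1487.4 and 2013.9 (adjusted p = 0.0756). S100a4, a calcium-binding protein of fibroblasts, read 563.7 and 1206.4 against 1756.2, 2002.7 and 2543.8 (adjusted p = 0.0549). Summed over the list, the signal was 6451.2 and 7188.2 with pioglitazone and 13476.2, 12382.7 and 13352.0 with vehicle. The part of these markers in the falls of matrix genes was not tested, and in RNA from whole cultures fewer cells of a type and less RNA per cell cannot be told apart. Markers of some other cell types also lay mostly below 0, with 0 calls: 11 of 12 for epithelium (median -0.32), 7 of 8 for osteoblasts and chondrocytes (median -0.48) and 7 of 9 for endothelium (median -0.46). Others were more evenly split, also with 0 calls. Below 0 lay 11 of 22 for skeletal muscle (median -0.02), 11 of 18 for macrophages (median -0.03) and 5 of 9 for smooth muscle and pericytes (median -0.07). The summed signal of 15 fat-cell markers was 187550.1 and 183607.7 with pioglitazone and 147730.3, 167056.2 and 187925.1 with vehicle.

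**Figure D3:**
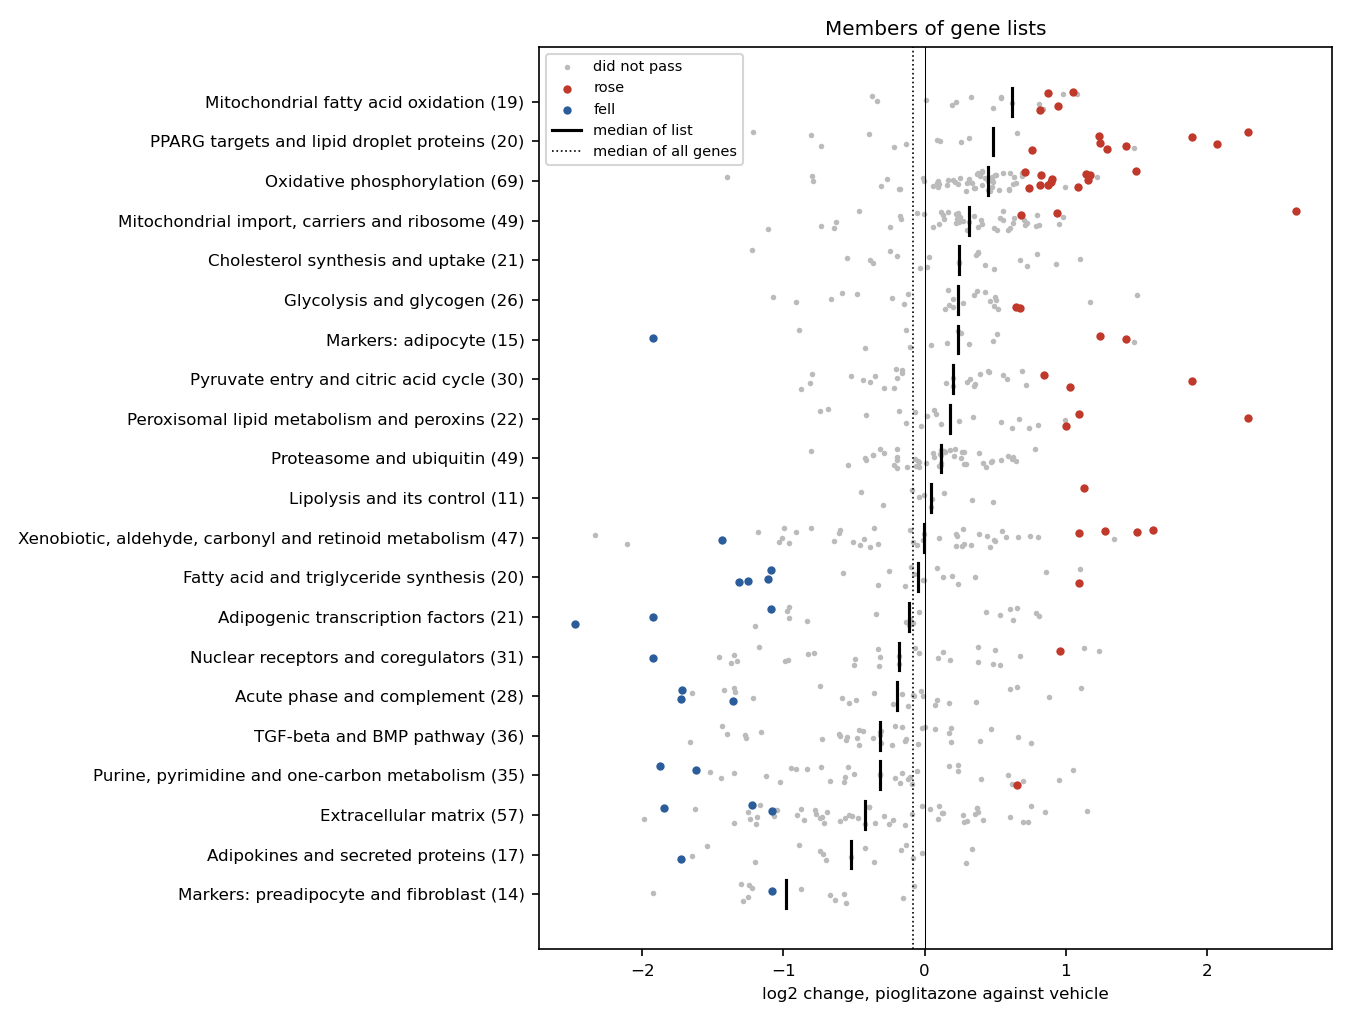
Log2 change of pioglitazone against vehicle (horizontal axis) for the tested members of gene lists, 1 row per list with the number of tested genes in brackets and 1 point per gene; red points rose, blue points fell, grey points did not pass, thick bars are list medians and the dotted line is the median of all genes at -0.08. Medians run from 0.62 for mitochondrial fatty acid oxidation to -0.98 for markers of preadipocytes and fibroblasts. The lists drawn are a selection from 50, and among those drawn the ones with red points mostly concern lipid use and mitochondria. Lists with rises that are not drawn include those of annexins and S100 proteins, heat shock and chaperones, glycoprotein synthesis and cell cycle.

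Several of the strongest calls belonged to none of these groups. Pmm1, a phosphomannomutase, had the largest rise of all, at 1955.2 and 1646.5 with pioglitazone against 149.2, 203.0 and 749.5 with vehicle (7.89-fold, log2 2.98 ± 0.38, adjusted p = 0.000901). The set 2 vehicle array lay well above those of set 1. Anxa2, a calcium-dependent membrane-binding annexin, read 14680.8 and 12331.9 against 3517.9, 3202.0 and 6150.7 and rose 3.83-fold (adjusted p = 5.97e-06). Its relative Anxa8 moved the opposite way, from 6224.0, 8896.4 and 6905.0 with vehicle to 2142.0 and 2139.1, a fall of 3.17-fold (adjusted p = 0.000901), and the calcium-binding S100a6 fell 1.87-fold (adjusted p = 0.00675). These were the 3 calls among 17 annexins and S100 proteins (5.88% rose and 11.8% fell, against 0.728% and 0.327% of all genes).

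Gelsolin, Gsn, which severs actin filaments, read 804.1 and 945.6 against 3296.8, 2867.0 and 4319.2 and fell 3.74-fold (adjusted p = 0.000316). It was the only call among 59 genes of the actin cytoskeleton and adhesion, 1.69% against 1.06% of all genes, which is near the background. Ralgds, an exchange factor for Ral GTPases, read 1566.8 and 1291.2 against 4110.8, 3862.2 and 4823.3 and fell 3.09-fold (adjusted p = 0.00104). Its second probe set had a log2 change of 0.62 and did not pass. The largest secure fall belonged to probe set 97317_at, which the annotation used here pairs with no single gene: it read 1819.9 and 2202.2 against 11585.2, 11240.2 and 10742.9 (5.17-fold lower, adjusted p = 1.09e-05). In all, 17 of the 106 probe sets, 12 higher and 5 lower, are unnamed here in this sense.

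Enzymes of carbonyl, retinoid and epoxide metabolism supplied 4 rises and 1 fall among 47 genes (8.51% and 2.13%, against 0.728% and 0.327% of all genes). The list's median log2 change was -0.003 and turned positive under several settings. Cbr3, a carbonyl reductase, read 5034.4 and 4219.2 against 1669.6, 1520.7 and 2076.9 and rose 3.07-fold (adjusted p = 0.000199). Retsat, which saturates retinol, read 5897.9 and 6480.5 against 1903.3, 2030.2 and 4859.7 and rose 2.85-fold (adjusted p = 0.00153). Both calls held whichever array was left out, although the set 2 vehicle value of Retsat came close to those with pioglitazone. Ephx2, the soluble epoxide hydrolase, rose 2.43-fold, with the call lost without vehicle replicate 1 or either pioglitazone array (adjusted p from 0.0566 to 0.101), and the fourth rise was that of Hsd17b12. The fall was Cyp2f2, a cytochrome P450, at 764.3 and 708.8 against 1662.9, 2099.3 and 1898.8 (2.71-fold lower, adjusted p = 0.0135), lost without vehicle replicate 2 or 4 or either pioglitazone array.

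Of 35 tested genes of purine, pyrimidine and one-carbon metabolism, 2 fell and 1 rose (5.71% and 2.86%, against 0.327% and 0.728% of all genes). The rise was Nme2, a nucleoside diphosphate kinase, at 1.58-fold (adjusted p = 0.0428), and the falls were Xdh and Pnp. Xdh, xanthine dehydrogenase, read 200.2 and 263.1 against 686.3, 856.5 and 942.1 (3.66-fold lower, adjusted p = 0.0456), and purine nucleoside phosphorylase, Pnp, read 782.3 and 492.2 against 1998.8, 1689.0 and 2806.4 (3.07-fold lower, adjusted p = 0.0362). Neither group of values overlapped, but the calls of Xdh, Pnp and Nme2 were each lost without any of 9 arrays. Rgs2, a brake on G-protein signalling, also lost its call without any of 9 arrays, though not the same ones: it read 176.2 and 797.2 against 1860.3, 2132.9 and 2048.0 (4.90-fold lower, adjusted p = 0.0465), and its log2 change was -1.20 without pioglitazone replicate 1. Tpp2, a tripeptidyl peptidase, read 185.5 and 487.6 against 896.8, 1250.2 and 1493.5 (3.74-fold lower, adjusted p = 0.0465) and kept its call only without pioglitazone replicate 2. A second Tpp2 probe set had a log2 change of -0.70 and did not pass (adjusted p = 0.62). Gadd45g, a growth-arrest gene, rose 2.92-fold, at 1116.7 and 1402.3 against 500.6, 347.5 and 976.0 (adjusted p = 0.0183); the call was lost without vehicle replicate 2, either pioglitazone array or troglitazone replicate 4. Cdo1, which oxidises cysteine, read 1136.1 and 1066.5 against 2548.0, 2776.6 and 2277.5 and fell 2.42-fold (adjusted p = 0.00807), a call lost without vehicle replicate 2 (adjusted p = 0.0655). The other call among 36 genes of amino acid breakdown and ketone use went up (2.78% rose and 2.78% fell, against 0.728% and 0.327% of all genes). Fah, the last enzyme of tyrosine breakdown, read 4128.8 and 5424.4 against 2694.8, 2427.6 and 3274.3 and rose 1.90-fold (adjusted p = 0.0135). That call was lost without vehicle replicate 2 or 4 or pioglitazone replicate 2. Caveolin 1, Cav1, the coat protein of caveolae, fell 2.28-fold (2259.3 and 4493.4 against 7394.0, 7922.7 and 4964.6, adjusted p = 0.0277), a call kept in 6 of the 11 fits. A second Cav1 probe set was also lower and did not pass.

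A panel of 32 genes of fat-cell biology, named whatever their test, gave the background to these calls. Where 1.06% of all genes passed, 27 of the panel were tested and 6 passed, namely Pck1, Pdk4, Pparg, Cebpd, Srebf1 and Fasn. Of the 21 that did not, 8 had pioglitazone values that overlapped with the set 1 vehicle values, 6 had both above and 7 had both below. Over all genes, both lay above for 15.4% and below for 20.7%, and the rest overlapped. Slc2a4, the insulin-responsive glucose transporter, read 2355.7 and 2307.5 against 2175.2, 2086.3 and 2355.0 (log2 0.16 ± 0.21). Pnpla2, the triglyceride lipase ATGL, read 55943.8 and 47917.2 against 45219.5, 55933.7 and 53538.2 (log2 0.04 ± 0.14, and -0.15 under quantile normalization). Lipe, the hormone-sensitive lipase, read 16218.2 and 15673.3 against 12043.5, 11188.5 and 17081.7 (log2 0.48 ± 0.13, adjusted p = 0.107). Hsd11b1, which regenerates active glucocorticoid, read 914.9 and 802.7 against 1836.5, 1228.8 and 1785.8 and did not pass (adjusted p = 0.161). Ucp1, the uncoupling protein of brown fat, was dim, at 195.2 and 188.1 against 188.5, 39.9 and 27.7. Irs1 lay under the floor on both pioglitazone arrays, at 32.3 and 33.4, and so has only a bound there.

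Troglitazone is the only other drug of the series given at the same dose, 20 µM, and time. Both drugs carry the thiazolidinedione ring; pioglitazone ends in a pyridine group, troglitazone in a chroman group like that of vitamin E. This was the 1 pair compared. Of 11739 probe sets, 4 differed (0.0341%; 745 at an unadjusted p under 0.05), 1 higher and 3 lower with pioglitazone. They belong to 3 genes, Pck1, Ero1a and Mt2, and 0.0377% of genes differed through their brightest probe set.

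Pck1 stood at 6331.3 and 6603.0 with pioglitazone and at 1356.0, 1695.8 and 1913.7 with troglitazone, 3.89-fold higher with pioglitazone (log2 1.96 ± 0.26, adjusted p = 0.00851). Against vehicle the log2 change was 2.07 with pioglitazone, 0.11 with troglitazone and, at the different dose of 1 µM, 1.26 with rosiglitazone. Ero1a, an oxidase that forms disulfide bonds in the endoplasmic reticulum, was lower with pioglitazone on both its probe sets. The brighter one read 11648.8 and 10507.9 against 27598.1, 25194.0 and 32555.3 (2.64-fold, adjusted p = 0.00148), and the other 4407.8 and 2828.4 against 7839.0, 12821.2 and 21425.8 (4.96-fold, adjusted p = 0.00059). With vehicle the brighter probe set gave 12009.4, 10401.1 and 8627.3, values that overlapped with pioglitazone. Metallothionein 2, Mt2, which binds zinc and copper, read 8342.6 and 8172.2 with pioglitazone and 23111.4, 15802.5 and 20830.3 with troglitazone (2.17-fold lower, adjusted p = 0.00851); vehicle gave 7662.8, 7439.0 and 9093.3. The Pck1 and Mt2 calls were lost without either pioglitazone array (adjusted p from 0.0615 to 0.187), Pck1 also without troglitazone replicate 1, Mt2 also without troglitazone replicate 2, and that of the brighter Ero1a probe set without pioglitazone replicate 2 (adjusted p = 0.0532). Without the filter on dim probe sets none of these 4 probe sets passed (adjusted p from 0.0607 to 0.184), and with the 3′ to 5′ ratio as a covariate both Ero1a probe sets passed and Pck1 and Mt2 did not (adjusted p = 0.0666 for each). In a fit of the arrays of these drugs alone, 0 probe sets passed in limma, with 590 at an unadjusted p under 0.05.

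For other strong responses the drugs were not told apart, and the intervals say how large a difference remains possible. Pioglitazone minus troglitazone was -0.04 for Pparg (95% interval -0.56 to 0.48), -0.10 for Pdk4 (-0.76 to 0.57), -0.28 for Plin2 (-0.62 to 0.06) and 0.36 for Cidec (0.05 to 0.67, adjusted p = 0.687) on the log2 scale. Cebpd had the widest gap of these, -1.90 (-2.86 to -0.93), which did not pass (adjusted p = 0.278). Its log2 change against vehicle was -2.48 with pioglitazone, -0.58 with troglitazone and -0.60 with 1 µM rosiglitazone. All changes against vehicle share the same vehicle arrays, so values of the drugs are set side by side here and not counted together.

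**Figure D4:**
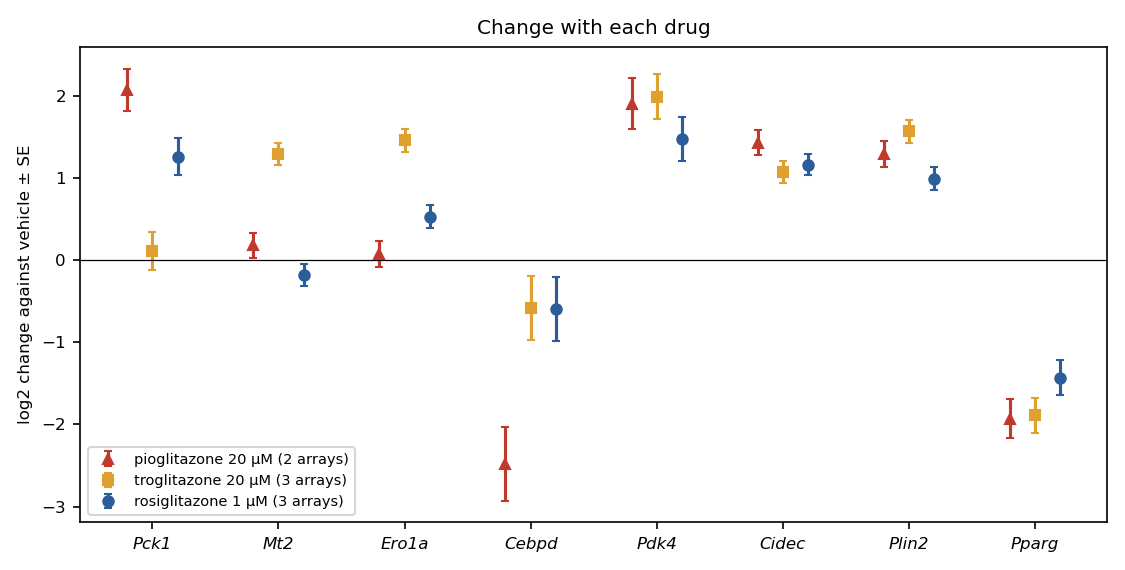
Log2 change against vehicle ± standard error (vertical axis) for 8 genes with pioglitazone at 20 µM (2 arrays, triangles), troglitazone at 20 µM (3 arrays, squares) and rosiglitazone at 1 µM (3 arrays, circles). Pck1 lies at 2.07 with pioglitazone and 0.11 with troglitazone, Mt2 and Ero1a lie near 0 with pioglitazone and at 1.29 and 1.46 with troglitazone, and Pparg lies below -1 with each drug.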

How the data were processed

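Signal intensities of 12488 probe sets on 11 arrays were used as deposited by the authors. From the values, each array had been scaled to a mean near 500 after trimming 2% at each end; for the array software and summary method, the sources used here give nothing. Values under the floor of 73.7, the 25th percentile of all values, were set to it, and log2 values were taken. The 66 control probe sets were left out, and probe sets above the floor on at least 2 arrays were tested with limma 3.58.1 in R 4.3.3. The model held group and set over all 11 arrays, with an intensity trend and Benjamini-Hochberg adjustment over 11739 probe sets; intervals are 95%. Precision is limited by the few arrays. Tested on simulated data for pioglitazone against vehicle (11737 probe sets, 50 changed at each size), the fit called 30 of 50 at a log2 change of 2, 22 at -2, 9 at 1 and 8 at -1, with 3 false calls. The changed probe sets were all drawn from those above the median signal, so these rates do not cover dim probe sets.

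The platform annotation names 1 gene for 10833 probe sets, several for 396 and none for 1193, and 10817 matched the RefSeq gene table of GRCm38.p6. A gene is represented by its brightest tested probe set. Named genes are the 15 largest rises and 15 largest falls that passed, up to 4 called members of each list by p-value, a fixed panel of 32 genes, and the calls between pioglitazone and troglitazone. Genes outside that rule (Cpt1a, Cox5a, Cycs, Fdps, Hsd17b12, 97317_at, the remaining respiratory genes and the markers Thy1, Col1a1 and S100a4) were chosen after their values were seen. Members and lists were chosen with earlier results of these data known. Alternatives changed the normalization, floor, filter, set term, trend, replicate block, 3′ to 5′ covariate and the arrays included. The deviations of arrays with equal replicate numbers correlated between -0.0444 and 0.00994 across groups, over all tested probe sets. Many of these are dim, so such values cannot show whether arrays of equal number belong together.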

Additional observations from a re-analysis of the deposited data

How the results depend on the processing

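The count of 106 probe sets was 25 without the set term, 34 with set 1 alone, 31 with the replicate block within set 1 alone, 6 without the intensity trend, and 3 both with only vehicle and pioglitazone and with their 4 set 1 arrays; leaving out 1 array gave 49 to 115. It was 82 under quantile normalization and 141 under median centring. Rises made up 69.8% of calls, 48.8% under quantile normalization and 87.2% under median centring, which moved the median of all probe sets from -0.078 to 0.001 and 0.057. With the replicate block over all arrays the count was 114, of which 103 were among the 106. The labels do not say whether arrays of equal replicate number belong together. With the 3′ to 5′ covariate it was 123 (76 higher, 47 lower), 79 of them shared with the 106. Dropping the arrays pioglitazone 2 and rosiglitazone 2 gave 147 (80 higher, 67 lower), 68 of them shared. At least 105 of the 106 kept their direction under each alternative run. The count of 4 between pioglitazone and troglitazone was 1 without the set term, 1 with the replicate block within set 1 alone, 0 without the intensity trend (657 at an unadjusted p under 0.05), 10 without those 2 arrays (2 of them among the 4), 3 with the covariate (2 among the 4), 4 without the filter on dim probe sets (0 among the 4, all higher), 0 with only these drugs' arrays (590 at an unadjusted p under 0.05) and 2 to 4 leaving out 1 array. Single genes were checked for a change of sign only among the 83 named ones. Their log2 changes against vehicle that changed sign were all of genes that had not passed. They were Cebpa (0.082) and Adipoq (0.05) under median centring; Cd36 with the covariate (-0.257), without those 2 arrays (-0.446) and leaving out 1 array (-0.444 to 0.661); Lpl (-0.6 to 0.163) leaving out 1 array; Insr with the floor at the 10th percentile (0.287) or a constant added (0.064); Pnpla2 under quantile normalization (-0.15) and leaving out 1 array (-0.069 to 0.155); Ero1a under quantile normalization (-0.208), in the fits of set 1 alone, its block, only these groups and the 4 arrays (-0.015 each), and leaving out 1 array (-0.015 to 0.183); and Mt2 under quantile normalization (-0.071). The cause was not tested. Dim probe sets, whose values lie near the floor, limit what could be detected.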
